A study of Mus musculus with 8 samples.

Results

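The 4 arrays of untreated mouse skin fell into pairs by the signal of *Cd109* that cut across the genotype in their titles, and the pairs differed widely in genes of the growing hair follicle. These 4 arrays, of 8 in the series, are described here in pairs: 2 arrays chosen by a *Cd109* signal below -5 (called Cd109-low) and 2 chosen by a *Cd109* signal above 0 (called Cd109-high). Signal here means log2 intensity after subtracting the log2 75th percentile of that array, so a value of 0 is a probe at the percentile and a step of 1 is a change of 2-fold.

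Gene expression was read from whole skin of female FVB/N mice, an albino strain, on 1-colour Agilent arrays with 2 arrays per group. The groups were *CD109*+/+ and *CD109*-/- skin, either untreated (acetone, the solvent of the carcinogen, by another field of the same labels) or taken 24 h after DMBA, a polycyclic hydrocarbon that damages DNA once metabolised. The wild-type mice were bought in, and the *CD109*-/- mice had been backcrossed onto that strain. Neither the age of the mice on the arrays nor the number of mice behind an array is given, and nothing says that 2 replicates came from separate mice, so p-values here measure only the spread between arrays, which may be technical. All 8 arrays lay on 1 slide scanned on 1 day, with the untreated arrays in 1 row and the DMBA arrays in the other. Between 63.6% and 67.0% of gene spots were well above background, 0 were saturated, and the precision is limited by the number of arrays. *Krt5*, a keratin of basal keratinocytes, had a log2 signal of 7.75 to 8.42 over the 8 arrays, and *Krt10*, a keratin of the layers above, of 6.28 to 7.76, so both defining keratins of epidermis were strongly present on each array.

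CD109 is a glycoprotein held in the cell membrane by a lipid anchor, and it binds TGF-beta and its receptors in keratinocytes. Hair follicles pass through cycles of rest (telogen), growth (anagen) and regression (catagen). In growth, the dermal papilla signals to the epithelial matrix at the base of the follicle, matrix cells divide, and their descendants form the inner root sheath and the hair shaft, while melanocytes of the bulb are active. Keratins and keratin-associated proteins of the shaft are made almost only in this phase, so whole skin can carry them at very different levels.

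*Cd109* had a log2 signal of 2.29 on the array labelled *CD109*+/+ untreated replicate 1 and of -6.28 on the array labelled *CD109*+/+ untreated replicate 2. It had a signal of 1.89 on the array labelled *CD109*-/- untreated replicate 1 and of -7.90 on the array labelled *CD109*-/- untreated replicate 2. The Cd109-low arrays are therefore replicate 2 of either title and the Cd109-high arrays replicate 1 of either title, and 2 of the 4 titles, *CD109*+/+ replicate 2 and *CD109*-/- replicate 1, go against the signal. Because *Cd109* chose the sides, its own difference, -9.18 between the means of the 2 low and the 2 high arrays, is a description and not a finding. The probe (A_51_P349546) was not well above background on the low arrays, which makes the signal at least 230-fold higher on the high ones. Its place relative to the deletion is not given in the sources used here, so it may not check the knockout. After DMBA the signal followed the titles: 1.09 and 1.67 on the *CD109*+/+ arrays, and -7.85 and -7.52 on the *CD109*-/- arrays. In what follows an untreated array is named by its side, and each comparison of the sides is given without a test, since the sides were set by a measured value, coincide with the replicate number and cannot be told apart from it.

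**Figure D1:**
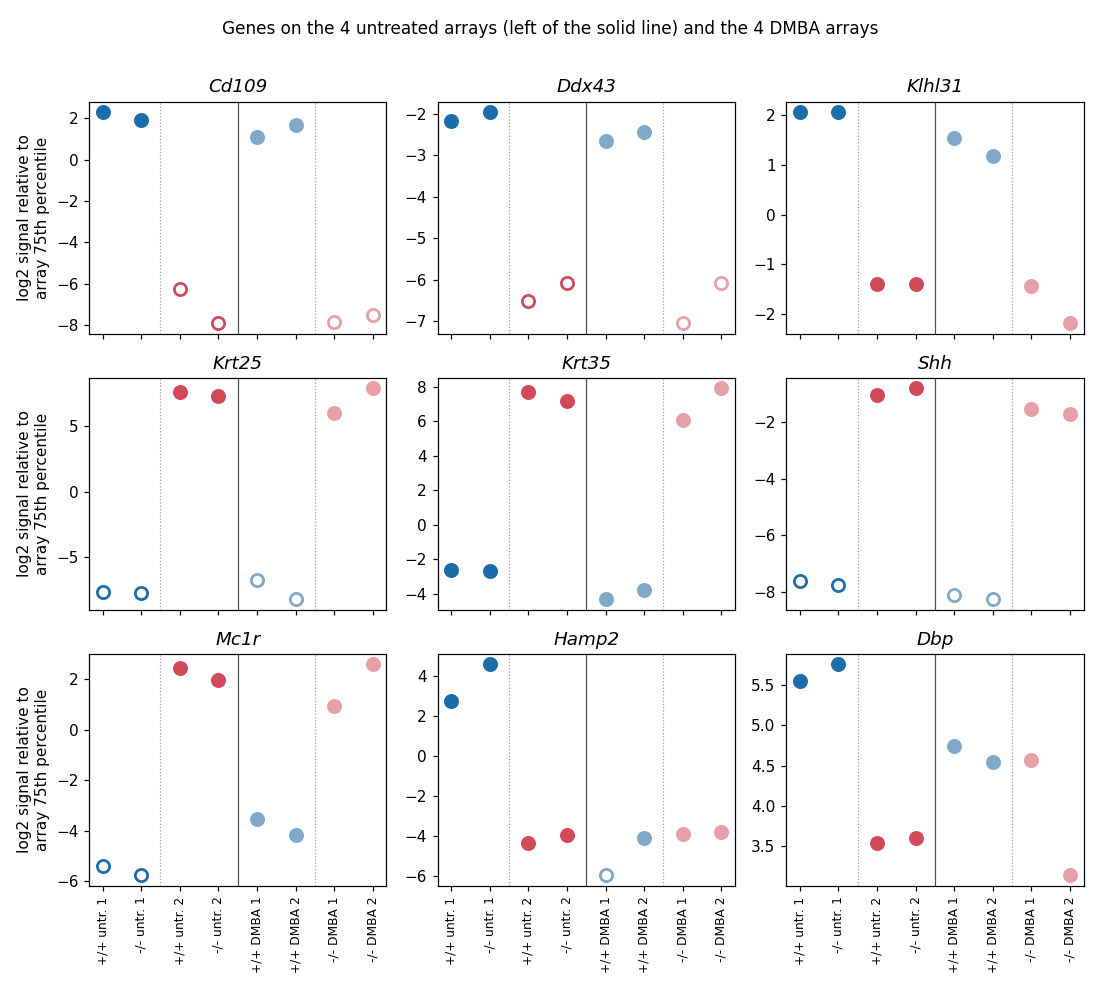
Log2 signal relative to the array's 75th percentile (y axis, a different range in each panel) of 9 genes on each of the 8 arrays (x axis, with their titles), with the Cd109-high untreated arrays in dark blue, the Cd109-low untreated arrays in dark red, and the DMBA arrays labelled *CD109*+/+ in light blue and *CD109*-/- in light red. Each point is 1 array and open points were not well above background. *Ddx43* and *Klhl31* follow *Cd109* on all 8 arrays, *Krt25*, *Krt35*, *Shh* and *Mc1r* take the opposite course, and *Hamp2* is high on the 2 Cd109-high untreated arrays alone.

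Array pairs were first compared over 39234 probes. The 2 Cd109-high arrays, which bear different titles, differed at least 2-fold in 8.22% of probes, and the 2 Cd109-low arrays, also of different titles, in 10.2%. Pairs of opposite sides differed in far more. For the pair titled *CD109*+/+ the share was 18.6%, for the pair titled *CD109*-/- it was 21.3%, and for the other two it was 18.7% and 21.3%. Arrays of the same title were thus about as unlike as arrays of opposite title and opposite side.

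**Figure D2:**
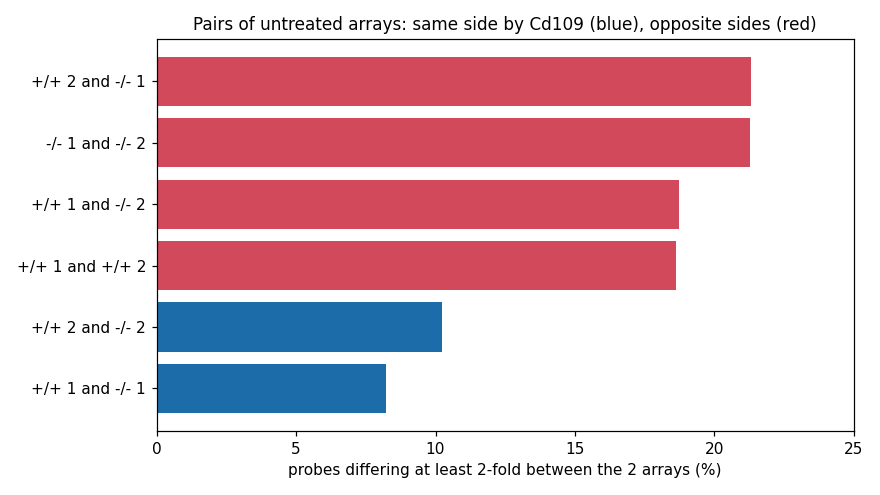
Share of 39234 probes (x axis, %) that differed at least 2-fold between 2 untreated arrays, for the 6 pairs (y axis, titles and replicate numbers). Bars are single values without error. Blue pairs lie on the same side by *Cd109* and reach 8.22% and 10.2%, and red pairs lie on opposite sides and reach 18.6% to 21.3%.

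A probe was considered where either side had it well above background on both of its arrays, and was called apart where both low arrays lay at least 1 (log2) above, or at least 1 below, both high arrays. Of 34802 probes considered, 1455 (4.18%) were apart with the low side above and 1255 (3.61%) with the low side below. By gene, with the brightest probe for each, 830 of 16322 genes (5.09%) were above and 789 (4.83%) below on the low side. The median difference over all 16322 genes was -0.06. Grouped by title instead, 49 of 34083 probes (0.144%) had both *CD109*-/- arrays at least 1 above both *CD109*+/+ arrays and 93 (0.273%) at least 1 below. No probe passed between the untreated titles (0 of 34083 by limma, smallest adjusted p 0.292, with a threshold of 0.05). Without adjustment limma gave 489 probes under that threshold and the t-test named in the methods gave 778, with 0 after its own adjustment. At the limit of the rule, *Mrgprd* was just inside below, with a smallest difference of -1.0001, and *Pdzph1* just outside at -0.9994. *Prdm11* was just inside above, at 1.0002.

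The genes furthest apart with the low side above were those of the inner root sheath and the hair shaft. *Krt25*, a keratin of the inner root sheath, had a signal of -7.63 and -7.73 on the Cd109-high arrays and of 7.58 and 7.32 on the Cd109-low arrays. It was not well above background on the high side, and the low side was at least 8993-fold higher. *Krt71*, its type II partner in the sheath, had -3.67 and -3.88 on the high side and 9.06 and 8.92 on the low side, which is a difference of 12.76. In these bulk samples more cells of a type and more RNA per cell cannot be told apart, here and in every list. Of the 12 genes of the inner root sheath list, 11 were apart above and 0 below, with a median difference of 8.31, or 8.03 with 2 genes not above background on the high side at their bound. *Gata3*, the remaining member and a transcription factor of the sheath, differed by 0.67. *Tchh*, which encodes trichohyalin, the matrix protein of sheath cells, differed by 8.69, and *Padi3*, whose enzyme modifies trichohyalin, by 9.30.

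All 14 hair shaft keratins considered were apart above, with a median difference of 7.35. For 6 of them the high side was not above background, and with these at their lower bound the median was 6.80. *Krt35*, a keratin of the early cortex and hair cuticle, had -2.60 and -2.67 on the high arrays and 7.69 and 7.16 on the low arrays. *Krt33b*, a keratin of the cortex, had -7.96 and -8.04 on the high arrays, not above background, and 5.83 and 3.86 on the low arrays, at least 1479-fold higher. The lower of these belonged to the array titled *CD109*-/- replicate 2. For the list as a whole the mean signal was -4.49 and -4.52 on the high arrays and 3.78 and 2.20 on the low arrays. Among the 50 keratin-associated protein genes considered, 45 were apart above and 0 below, with a median difference of 8.15, or 6.96 with the 26 genes not above background on the high side at their lower bound. Many of these genes are near-identical copies, so their probes may read one another and the count is uncertain. *Krtap6-1* had -7.95 and -8.02 on the high side and 4.96 and 3.06 on the low side, and *Krtap3-1* had -7.55 and -7.73 against 5.74 and 3.32. In the mean of the keratin-associated list too, the low array titled *CD109*-/- (1.67) lay below the one titled *CD109*+/+ (3.92), whereas the inner root sheath list had 4.68 and 5.31.

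Promoters of some structural hair genes are shown because these genes lay apart together and because many share 1 short sequence. Those shown are a selection in which every promoter holds that sequence, which is not so for all such genes. The lines give the 100 bases before the RefSeq start of each gene (GRCm38.p6, read 5′ to 3′ on the gene's strand), and capitals mark TATAAA, the core of the TATA box that positions the transcription machinery.
Krt25, chr11:99322952-99323051, minus strand: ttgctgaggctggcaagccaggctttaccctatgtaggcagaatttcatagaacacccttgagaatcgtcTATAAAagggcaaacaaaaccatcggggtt
Krt71, chr15:101743098-101743197, minus strand: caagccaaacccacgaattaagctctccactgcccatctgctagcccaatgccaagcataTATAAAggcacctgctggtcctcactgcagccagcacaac
Krt27, chr11:99351119-99351218, minus strand: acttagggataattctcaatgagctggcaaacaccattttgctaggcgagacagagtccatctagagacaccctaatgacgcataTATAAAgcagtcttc
Krt33b, chr11:100029869-100029968, minus strand: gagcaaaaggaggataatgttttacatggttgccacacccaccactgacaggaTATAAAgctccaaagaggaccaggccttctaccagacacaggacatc
Krt34, chr11:100041555-100041654, minus strand: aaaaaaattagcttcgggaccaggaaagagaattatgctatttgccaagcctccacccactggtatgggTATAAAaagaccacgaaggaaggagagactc
Krtap22-2, chr16:89010760-89010859, minus strand: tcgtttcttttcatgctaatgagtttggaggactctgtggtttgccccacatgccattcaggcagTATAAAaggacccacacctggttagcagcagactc
Krtap6-1, chr16:89031599-89031698, plus strand: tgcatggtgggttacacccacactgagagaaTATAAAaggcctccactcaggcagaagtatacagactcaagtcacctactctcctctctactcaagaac
Krtap3-1, chr11:99566631-99566730, minus strand: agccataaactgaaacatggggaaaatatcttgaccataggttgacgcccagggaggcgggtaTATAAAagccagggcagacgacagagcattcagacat
The match begins 30 bases before the start in *Krt25*, 40 in *Krt71*, 15 in *Krt27*, 47 in *Krt33b*, 31 in *Krt34*, 35 in *Krtap22-2*, 69 in *Krtap6-1* and 37 in *Krtap3-1*. Those of *Krt27*, *Krt33b* and *Krtap6-1* do not lie wholly within 40 to 15 bases before the start, the range of the next count.

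Over all genes considered, 12908 had such a window, and 345 of them (2.67%) held TATAAA on the gene's strand wholly within the bases from 40 to 15 before the start. Among the hair shaft, inner root sheath and keratin-associated genes apart above, it was 33 of 60 (55.0%), and among the other genes apart above 45 of 609 (7.39%). For the genes apart below the share was 31 of 593 (5.23%). On either strand of the whole 300-base window, TATAAA stood in 46 of the 60 structural hair genes (76.7%) and in 1447 of all 12908 (11.2%). CTTTGA, the core read by LEF1 and the TCF factors of Wnt signalling, was searched on both strands of the whole 300-base window (250 before to 50 after the start). It stood in 20 of the 60 structural hair genes (33.3%) and in 100 of the 609 other genes apart above (16.4%). The share was 109 of 593 (18.4%) for genes apart below and 1959 of 12908 (15.2%) for all genes considered. These are counts of letters in related gene copies, and a match is not a measured binding site.

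Regulators of the hair matrix and cortex were above on the low side in 11 of 14 genes, with a median difference of 4.28 (3.91 with 1 gene at its bound) and 0 below. *Dlx2*, a homeobox gene, had -4.59 and -4.99 on the high arrays and 1.91 and 1.74 on the low arrays. *Msx2*, a homeobox gene of the matrix, had -1.35 and -1.49 against 4.04 and 3.66, *Mycn*, a growth regulator, differed by 4.76, and *Lef1*, the Wnt effector of the matrix, by 3.99. *Hoxc13*, which drives hair keratin genes, differed by 4.58 and *Foxn1*, the gene lost in the nude mouse, by 3.16. None of the 3 remaining genes (*Dlx3*, *Foxq1* and *Prdm1*) reached the limit of 1 between all pairs, and their differences were 1.00, 0.81 and 0.40.

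Of the hedgehog pathway, which carries the signal of the matrix to the papilla, 7 of 12 genes were apart above and 0 below. *Shh*, the ligand, had -7.63 and -7.75 on the high arrays, not above background, and -1.02 and -0.80 on the low arrays, at least 27.4-fold higher. Its receptor *Ptch1* differed by 2.34, the transducer *Gli1* by 3.21 and the decoy receptor *Hhip* by 2.67, all 3 being genes that the pathway itself switches on. The co-receptors *Boc*, *Cdon* and *Gas1* had differences of -0.46, -0.57 and -0.93. In the dermal papilla list 5 of 14 genes were apart above and 0 below. *Corin*, a protease of the papilla, had -7.26 and -6.87 against -1.66 and -1.90, and *Rspo2*, a Wnt enhancer made by the papilla, had -7.26 and -6.28 against -1.73 and -1.90. Neither was above background on the high side, and the low side was higher by at least 14.97-fold for *Corin* and by at least 14.6-fold for *Rspo2*. *Fgf7* and *Fgf10*, growth factors of the papilla, differed by -0.59 and -0.87.

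Among 14 genes of the bulge and the resting follicle, 4 were apart above and 1 below. *Fgf18*, which the resting bulge makes, was the one below, with 2.04 and 1.31 on the high arrays and -0.50 and -0.48 on the low arrays. *Fgf5*, the factor that ends growth of the hair, had -4.61 and -5.25 against -0.08 and -0.80. *Lhx2* and *Tbx1*, transcription factors of follicle stem cells, differed by 1.99 and 2.07. *Krt15* and *Cd34*, markers of the bulge, differed by -0.77 and -1.01 without reaching the limit between all pairs.

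Melanocyte genes were above on the low side in 11 of 15 cases, with a median difference of 3.44. The largest was *Mc1r*, the receptor for the melanocyte-stimulating hormone, with -5.39 and -5.77 on the high arrays and 2.44 and 1.96 on the low arrays, at least 216-fold higher. *Pmel*, the fibre protein of pigment granules, differed by 4.83. *Mitf* and *Sox10*, transcription factors of the lineage that other skin cells also express, differed by 0.15 and 0.02.

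Proliferation genes were above in 18 of 23 cases and below in 0, by less than the hair genes, with a median difference of 1.48. *Bub1*, a kinase of the spindle checkpoint, had -1.98 and -2.21 on the high arrays and -0.15 and 0.06 on the low arrays. *Top2a*, the topoisomerase of dividing cells, differed by 1.71, and *Tyms*, an enzyme of nucleotide synthesis, by 0.29. All 23 genes had both low arrays above both high arrays by some margin.

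Of 18 genes of activated or psoriatic epidermis, 6 were apart above and 0 below. *S100a9*, a calcium-binding alarmin, had 2.50 and 2.58 on the high arrays and 5.86 and 5.58 on the low arrays. *S100a7a* had -7.63 and -5.54 against 0.13 and -1.27, at least 32.5-fold higher, and *Il20*, a cytokine of the same setting, had -7.57 and -7.91 against -3.25 and -3.48, at least 4.99-fold higher. *Defb3*, an antimicrobial peptide, was at least 12.5-fold higher. *Krt6a*, *Krt16* and *Il24*, also of this list, did not separate the sides, with differences of 0.73, 0.16 and 0.19. *Crnn*, which encodes cornulin, had -4.93 and -4.99 against 3.18 and 2.11 and was the 1 gene of 23 in the cornified epidermis list above, whereas 3 were below. *Krt77*, a keratin of sweat ducts and of interfollicular epidermis, was among the latter with 4.57 and 4.21 on the high arrays and 1.91 and 2.02 on the low arrays.

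**Figure D3:**
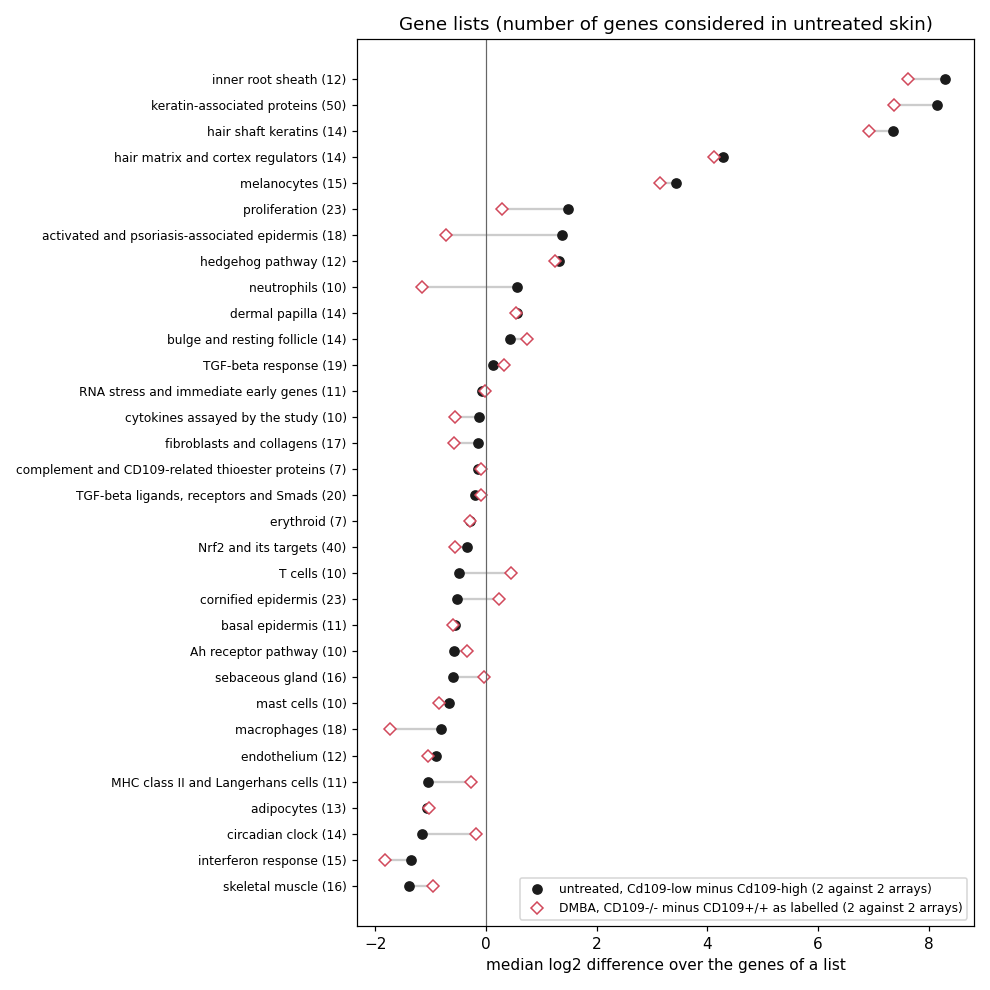
Median log2 difference (x axis) over the genes of each list (y axis, with the number of genes considered in untreated skin). Black points are untreated skin, Cd109-low minus Cd109-high, and open diamonds are skin after DMBA, *CD109*-/- minus *CD109*+/+ as titled, each from 2 against 2 arrays and without an error bar. The shaft, sheath, keratin-associated, matrix and melanocyte lists lie far to the right on both measures (8.31 and 7.63 for the inner root sheath), the dermal papilla (0.55 and 0.54) and bulge (0.44 and 0.75) lists lie near 0 on both, while proliferation (1.48 and 0.29) and the circadian clock (-1.16 and -0.18) lie near 0 after DMBA.

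With the low side below, skeletal muscle, clock, fat and interferon genes had the lowest list medians. For muscle, 9 of 16 genes were apart below and 0 above, with a median of -1.40, and all 16 had both low arrays below both high arrays. *Myh2*, a fast myosin, had 6.37 and 6.13 on the high arrays and 4.32 and 3.78 on the low arrays, and *Ckm*, the muscle creatine kinase, had 6.42 and 6.20 against 4.76 and 4.75. In the mean of the list the signal was 6.36 and 6.15 on the high arrays and 4.84 and 4.85 on the low arrays. The part that muscle under the skin plays in the other genes below was not tested. Of 13 adipocyte genes, 4 were apart below, among them *Adipoq*, the hormone of fat cells, which differed by -1.38. Of 12 endothelial genes, 2 were apart below, and *Lyve1*, a receptor of lymphatic vessels, was one, with a difference of -2.16. Macrophage genes had a median of -0.80, and 1 of 18, the scavenger receptor *Marco*, was apart below (5.56%, against 4.83% of all genes). The interferon response had a median of -1.36 with 0 of 15 apart, and its mean signal was uneven within the high side, at 0.61 on the array titled *CD109*+/+ and 2.01 on the one titled *CD109*-/-.

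Circadian clock genes were apart below in 6 of 14 cases and above in 0. *Dbp*, a clock output factor, had 5.54 and 5.75 on the high arrays and 3.54 and 3.60 on the low arrays, a 4.22-fold difference of the means. *Per2*, a repressor of the clock, had -1.27 and -0.98 against -2.76 and -2.87, and *Nr1d1*, which encodes REV-ERB alpha, had 1.36 and 1.07 against -0.23 and -0.30. *Hlf*, *Tef* and *Ciart* differed by -1.53, -1.19 and -1.24. *Arntl*, the activator whose rhythm runs opposite to these, differed by 0.71, with both low arrays above both high arrays. The hour at which skin was taken is not given, and its part in these values was not tested. CACGTG, the E-box that the clock activators bind, stood in the 300-base windows of 5 of 13 clock genes (38.5%) and of 1384 of 12908 genes considered (10.7%). Among the 5 clock genes apart below with a window, 2 held CACGTG, *Ciart* and *Tef*. For all genes apart below the share was 53 of 593 (8.94%). The promoter of *Ciart*, a clock repressor, held it 3 times, and 2 of them fall in the 100 bases before its start, shown in capitals.
Ciart, chr3:95882229-95882328, minus strand: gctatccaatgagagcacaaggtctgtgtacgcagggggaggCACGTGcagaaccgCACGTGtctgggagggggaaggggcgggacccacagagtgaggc

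The lists named next had at most 2 genes apart in a given direction, where 4.83% of all genes were apart below and 5.09% above. Apart below were 2 of 11 genes of the basal epidermis, 2 of 16 of the sebaceous gland, 1 of 11 of antigen presentation by MHC class II and Langerhans cells, 2 of 10 of the Ah receptor pathway, through which skin senses polycyclic hydrocarbons, and 1 of 11 immediate early and stress genes, with 0 apart above in each. Of 10 neutrophil genes 2 were above and 1 below, of 20 TGF-beta ligands, receptors and Smads 1 and 1, of 7 erythroid genes 1 and 0, and of 10 cytokines assayed in the study 1 and 0. Genes of T cells (10), mast cells (10) and fibroblasts (17) had 0 apart in either direction. These lists are small, so a count of 1 or 2 can be a larger share than that of all genes. The share below exceeded 4.83% in every list here with a gene apart below, and was 18.2% in the basal epidermis. The share above exceeded 5.09% in the neutrophil, erythroid and cytokine lists. The MHC class II list had a median of -1.04, with both low arrays below both high arrays in 9 of 11 genes. *Krt10* itself differed by -1.20 and *Krt5* by -0.33.

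As 2 titles go against *Cd109*, the lists were also read from the other two arrays alone, the array titled *CD109*-/- replicate 2 (low) against that titled *CD109*+/+ replicate 1 (high). All 14 hair shaft keratins, 11 of 12 inner root sheath genes, 45 of 50 keratin-associated genes, 11 of 15 melanocyte genes and 18 of 23 proliferation genes were then at least 1 above, and 14 of 16 muscle genes, 8 of 14 clock genes and 5 of 13 adipocyte genes at least 1 below. Over all 16322 genes it was 1090 above and 1461 below. The median of the interferon list was -0.51 there, against -1.36 with all 4 arrays, and that of the macrophage list -0.20 against -0.80. The cornified epidermis had 12 of 23 genes at least 1 below in this pair, and 3 to 9 in the other pairs of a low and a high array. A count in 1 pair cannot be smaller than the count of genes apart, which must reach the limit in every pair. That minimum was 3 for the cornified epidermis, and 9, 6 and 4 for the muscle, clock and adipocyte lists. For the shaft, sheath, keratin-associated, melanocyte and proliferation lists the counts of this pair equal the minimum. Those counts could not have been lower and are no check of the titles.

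The single genes furthest below, after *Cd109*, belonged to no list. *Hamp2*, a relative of the iron hormone hepcidin, had 2.76 and 4.57 on the high arrays and -4.36 and -3.95 on the low arrays, a 226-fold difference of the means. *Nmrk2*, a kinase of NAD synthesis found in muscle, had 2.58 and 2.10 against -2.54 and -3.45. *Serpinb6e*, a protease inhibitor, had 5.88 and 6.28 against 2.05 and 2.08. *Pgr*, the progesterone receptor, had -3.46 and -4.07 on the high arrays and was not above background on the low arrays, at least 3.96-fold lower there. *Pon1*, the paraoxonase, differed by -4.12. *Hs3st5*, a heparan sulfate sulfotransferase, was not above background on the low arrays and at least 10.1-fold lower there.

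Of 40 genes of Nrf2, the regulator of antioxidant defence, and its targets, 5 were apart below (12.5%) and 1 above (2.5%). Over all genes the shares were 4.83% below and 5.09% above. *Akr1c18* and *Akr1c14*, aldo-keto reductases that act on steroids, had 4.91 and 6.18 against 2.33 and 2.17, and 1.42 and 2.26 against -1.35 and -0.72. *Akr1c19*, of the same family, had -3.64 and -2.07 against -7.68 and -5.14, and it was above background on all of these but the low array titled *CD109*+/+. *Slc7a11*, the cystine transporter, was the 1 above. *Nfe2l2*, which encodes Nrf2, differed by -0.34. In the TGF-beta response list 4 of 19 genes were apart below (21.1%) and 1 above (5.26%), with a median difference of 0.13. By any margin, both low arrays lay below both high arrays in 8 of the 19 and above them in 7. Over all 16322 genes this held for 6698 and 5318, so the list as a whole did not lie to one side. The genes named next are among those below. *Ccn2*, a matricellular target, had 4.92 and 4.19 against 2.39 and 2.02, and *Tgfbi*, a secreted target, 6.62 and 6.92 against 5.25 and 5.52. *Tgfb2*, a ligand, had 2.59 and 2.83 against 0.70 and 0.62, while *Tgfb1* differed by -0.15 with overlapping sides. *Csf2*, a growth factor of myeloid cells, differed by 1.52, *Tnf* by -0.09 and *Cdkn1a*, which encodes the cell cycle inhibitor p21, by 0.70, none of them by the limit of 1 between all pairs. With its probes averaged, *Cdkn1a* differed by -0.10.

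*Cd109* belongs to the family of thioester proteins with alpha-2-macroglobulin and complement. *Mug1* and *Mug2*, murinoglobulins of that family, were apart above, with differences of 4.23 and 4.98. *Mug2* had -1.03 on the high array titled *CD109*+/+, -5.44 on the high array titled *CD109*-/-, and 2.07 and 1.41 on the low arrays. As the pair are close copies, their probes may read one another. *C3*, the complement component, differed by -0.93.

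The genes beside *Cd109* on chromosome 9 were read as a set of their own. Of the 40 genes considered that lie nearest to it, 20 on each side, 5 were apart below (12.5%) and 1 above. Among the other 862 genes of the chromosome 44 were apart below (5.10%), and among all 16321 other genes 788 (4.83%). *Ddx43*, an RNA helicase gene and the fifth considered gene from *Cd109*, had -2.18 and -1.96 on the high arrays and -6.50 and -6.08 on the low arrays, at least 12.8-fold lower there. *Klhl31*, a gene of the kelch family known from skeletal muscle, had 2.05 and 2.06 against -1.40 and -1.39. *Gsta4*, a glutathione transferase, differed by -1.61, *Cgas*, the sensor of cytosolic DNA, by -1.25 and *Mlip*, a gene of heart and skeletal muscle, by -1.54. All 5 lie on the same side of *Cd109* in gene order, and none of the 20 genes on the other side was apart. *C920006O11Rik*, on the side of the 5, was the gene above.

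**Figure D4:**
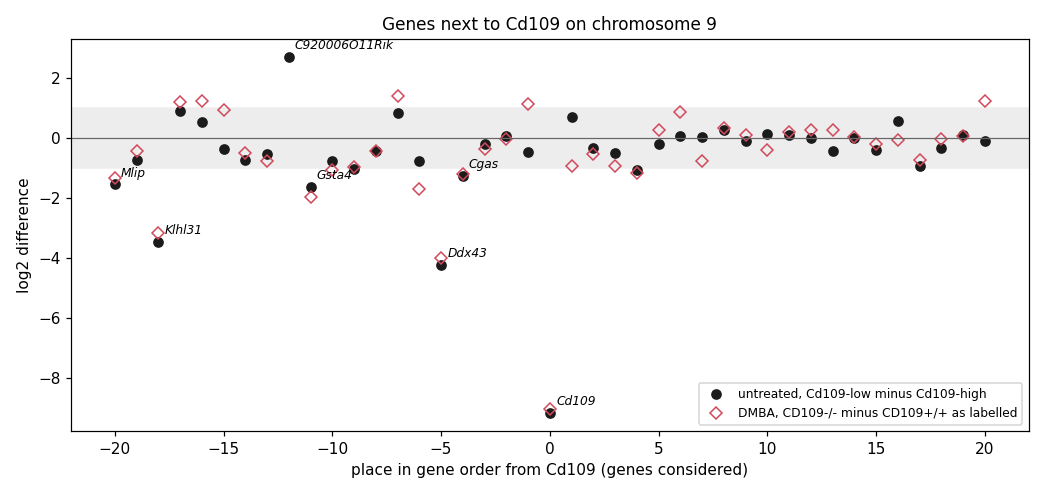
Log2 difference (y axis) of the 40 considered genes nearest to *Cd109* on chromosome 9 and of *Cd109* itself, in gene order (x axis, 0 is *Cd109*). Black points are untreated skin, Cd109-low minus Cd109-high, open diamonds are skin after DMBA, *CD109*-/- minus *CD109*+/+ as titled, and the grey band spans -1 to 1. *Ddx43* and *Klhl31* stand out below on both measures, and most points to the right of *Cd109* lie within the band.

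The arrays of DMBA-treated skin took no part in choosing the sides, and there *Cd109* followed the titles, so they gave a separate reading of the same genes between *CD109*-/- and *CD109*+/+. No probe passed in that comparison (0 of 36451 at an adjusted p under 0.05 from limma, smallest 0.0602). Without adjustment limma gave 12130 probes (33.3%) under 0.05, and the t-test named in the methods gave 6969, or 0 once adjusted. Without *CD109*-/- DMBA replicate 1, 11253 probes passed, and without *CD109*-/- DMBA replicate 2, 76 passed. In these fits the *CD109*-/- group is 1 array, which is assumed to vary like the 2 *CD109*+/+ arrays, from which all the spread then comes. Over 16120 genes, 572 (3.55%) had both *CD109*-/- arrays at least 1 above both *CD109*+/+ arrays and 661 (4.1%) at least 1 below.

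Of the 830 genes above on the Cd109-low side in untreated skin, 771 were tested after DMBA, and 0 passed. By value, 324 of the 771 (42.0%) were apart in the same direction and 7 in the opposite one, and 721 (93.5%) were higher in *CD109*-/-, against 7397 of all 16120 genes (45.9%). Their median difference was 2.04 in untreated skin and 1.45 after DMBA. An unadjusted p under 0.05 in that direction was found for 495 (64.2%), against 2238 of all genes (13.9%). Of the 789 genes below, 755 were tested and 0 passed. There, 105 (13.9%) were apart in the same direction and 5 in the opposite one, and 654 (86.6%) were lower in *CD109*-/-, against 8723 of all genes (54.1%). Their median difference was -1.58 in untreated skin and -0.92 after DMBA. An unadjusted p under 0.05 was found for 312 (41.3%), against 2902 of all genes (18.0%).

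**Figure D5:**
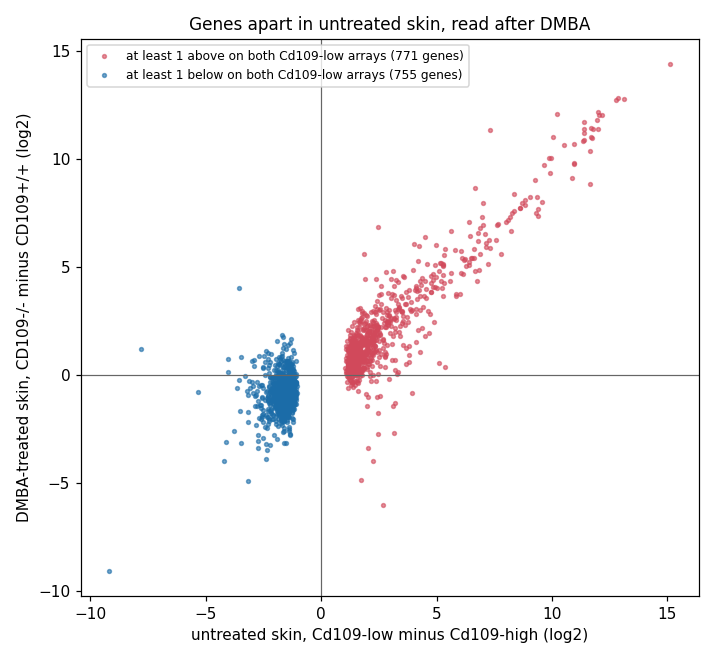
Log2 difference of each gene apart in untreated skin (x axis, Cd109-low minus Cd109-high) against its difference after DMBA (y axis, *CD109*-/- minus *CD109*+/+ as titled), with 771 genes above in red and 755 below in blue. Points are single genes and carry no error bar. The gap on the x axis is made by the limit of 1, most red points lie above 0, and the blue points spread further across 0.

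The hair genes were again far apart after DMBA, higher on the *CD109*-/- arrays, where *Cd109* was lower. *Krt25* had -6.70 and -8.19 on the *CD109*+/+ arrays and 5.99 and 7.90 on the *CD109*-/- arrays. Neither *Krt25* nor *Shh* was above background on the *CD109*+/+ arrays, and the *CD109*-/- arrays were higher by at least 8405-fold for *Krt25* and at least 22.1-fold for *Shh* (adjusted p = 0.0602 from limma for either). *Krt35* differed by 11.02 (SE 0.69, adjusted p = 0.0602) and *Dlx2* by 5.85 (SE 0.34, adjusted p = 0.0602), also by limma. None of these passed the threshold. Within *CD109*-/- skin the 2 arrays were unlike in the shaft. *Krt33b* had 1.46 on replicate 1 and 7.39 on replicate 2, and *Krtap6-1* had -1.10 and 7.06. The mean over the hair shaft keratins was 0.20 on replicate 1 and 4.97 on replicate 2, against -4.75 and -4.84 on the *CD109*+/+ arrays. For the inner root sheath it was 3.12 and 5.51 against -3.15 and -3.28. Untreated Cd109-low arrays lay between or near these, at 3.78 and 2.20 for the shaft and 5.31 and 4.68 for the sheath.

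*Ddx43* had -2.66 and -2.44 on the *CD109*+/+ arrays after DMBA and -7.04 and -6.07 on the *CD109*-/- arrays, where it was not above background and at least 7.98-fold lower (adjusted p = 0.064 from limma). *Klhl31* had 1.54 and 1.19 against -1.44 and -2.18, a difference of -3.17 (SE 0.32, adjusted p = 0.0646 from limma). *Gsta4* differed by -1.97 (SE 0.24, adjusted p = 0.0675 from limma). These 3 of the 40 neighbours were apart below in both treatments, which held for 10 of the 862 other genes of the chromosome and for 104 of 16321 genes in all. For *Klhl31* the untreated difference of the sides had been -3.45.

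Some other lists kept their direction after DMBA. The macrophage list had a median of -1.73 with 12 of 18 genes apart below, and the interferon list -1.82 with 8 of 15. The endothelial list had -1.04 with 4 of 12 apart below, and the adipocyte list -1.03 with 1 of 13. The skeletal muscle list had -0.96 with 2 of 16 apart below, against 9 of 16 in untreated skin. None of these lists had a gene apart above, and 4.1% of all genes were apart below. Other genes and lists did not show the same values as in untreated skin. *Hamp2* had -5.97 and -4.10 on the *CD109*+/+ arrays and -3.89 and -3.79 on the *CD109*-/- arrays, a difference of 1.19 (SE 0.67, adjusted p = 0.272 from limma), so none of the 4 reached the level of the Cd109-high untreated arrays. *Serpinb6e* had a difference of 0.72 (SE 0.47, adjusted p = 0.323 from limma) and *Pgr* of 0.14 (SE 0.57, adjusted p = 0.872 from limma). The proliferation list had a median of 0.29 with 0 of 23 genes apart. Its mean was 1.27 and 1.35 on the *CD109*+/+ arrays and 1.68 and 1.61 on the *CD109*-/- arrays, near the 1.60 and 1.73 of the untreated Cd109-low arrays and above the 0.41 and 0.14 of the Cd109-high arrays. The clock list had a median of -0.18 with 0 of 14 genes apart, and *Hlf* had the opposite sign, 1.18 (SE 0.20, adjusted p = 0.0749 from limma). The neutrophil list had a median of -1.15 with 4 of 10 genes apart below and 0 above, against a median of 0.56 in untreated skin. The list of activated or psoriatic epidermis had a median of -0.72, against 1.37 in untreated skin, with 4 of 17 genes apart below and 1 above. In that list *S100a9* differed by -1.30 (SE 0.92, adjusted p = 0.361 from limma), with 8.08 and 7.31 on the *CD109*+/+ arrays and 7.63 and 5.17 on the *CD109*-/- arrays. *S100a7a* stayed above, by 3.74 (SE 1.08, adjusted p = 0.115 from limma). *Akr1c19*, not above background on the *CD109*+/+ arrays, was at least 8.38-fold higher on the *CD109*-/- arrays (adjusted p = 0.0801 from limma). The difference between the treatments was tested by title in 1 fit over all 8 arrays, in which 0 of 36917 probes passed (limma, smallest adjusted p 0.054, with 5684 under 0.05 before adjustment). That test uses the titles of the untreated arrays and does not bear on the sides.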

How the data were processed

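Total RNA of whole skin was labelled with Cy3 and hybridized to Agilent mouse arrays, which the authors scanned and read with Agilent Feature Extraction 11.5.1.1. The deposited intensity of each spot is linear, with background and spatial trends already removed and no scaling across arrays. The deposited value table multiplies this intensity by a factor for each array whose origin is not given in the sources used here, and served as an alternative. Gene spots (59305) were averaged by probe. Of 55681 probes, 223 with no unflagged spot on some array were left out and 55458 kept. Each intensity was divided by its array's 75th percentile (337 to 527) and put on a log2 scale. Of 29684 probes with RefSeq accessions 27922 were named (21095 genes), and a gene was represented by its brightest probe considered. In 3 genes another probe was apart in the opposite direction, and none of these is named.

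Comparisons by title were made with limma 3.58.1 in R 4.3.3 on the 4 arrays compared, for probes detected well above background throughout at least 1 of the 2 groups, with a threshold of 0.05 on p adjusted by Benjamini-Hochberg. Against a group not well above background, a fold was computed from the lowest signal above background on each array and given as a lower bound. Genes were named by rule: *Cd109* and genes the study discusses, the 12 largest gaps (the smallest of the 4 differences between a low and a high array) in each direction (no more than 3 of them keratins and 3 keratin-associated), and up to 4 members of each list. Other list members named to describe a group were chosen after their values were seen. Promoters are from RefSeq. The members and lists were chosen with earlier results of these data known. The fit was tested on simulated data. *Tpsab1* and *Krt85* were not matched and are not analysed here.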

Additional observations from a re-analysis of the deposited data

Results flagged for a closer look

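For 2 of the genes named by rule, every pair of arrays moved in opposite directions between the titles in untreated and in DMBA-treated skin. Only the genes named by rule were searched, and the share over all genes was not counted. *Isg15*, an interferon-induced ubiquitin-like protein, had 2.95 and 3.75 on the *CD109*+/+ and 4.60 and 3.77 on the *CD109*-/- arrays untreated, and 4.28 and 4.59 against 3.27 and 3.39 after DMBA, so the difference by title changed by -1.94 (adjusted p = 0.282 from limma). *Tgfb1*, which encodes TGF-beta 1, had -0.13 and -0.20 against 0.25 and 0.00 untreated, and 0.48 and 0.60 against -0.38 and -0.94 after DMBA, a change of -1.49 (adjusted p = 0.272 from limma). Neither change passed, and both rest on untreated titles of which 2 go against the *Cd109* signal.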

How the results depend on the processing

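The count of probes above on the Cd109-low side (1455) was 722 after a normexp background correction, 10901 for any gap above 0 and 554 for a gap of at least 2, and that below (1255) was 519, 12412 and 123. Leaving out 1 untreated array at a time gave 1780 to 2773 above and 2076 to 3085 below, since a side of 1 array meets the limit more easily, and the *Cd109* difference (-9.18) was -9.99 to -8.37. With both arrays whose *Cd109* goes against their titles left out, an alternative chosen after seeing the data, 1 array a side gave 2761 above, 3781 below and a *Cd109* difference of -10.19. With normexp on the median spot intensity that difference was -5.08, and *Cd109* gave no value when every array had to be above background. No named gene apart and no list median of at least 1 in size changed sign under any alternative. *Cdkn1a* (not apart) did with its probes averaged (-0.10). Pooled over the alternatives, 58 of 408 list medians and 139 of 1325 gene values moved by more than the spread between arrays. Most of the gene values that moved came from 2 settings. Of 113 named genes, 62 moved with normexp and 68 with both arrays against their titles left out. Of 34 list medians, 10 and 11 moved there, and 5 to 10 with 1 untreated array left out. The deposited value table could move none, since its factor for each array is removed by the scaling.

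Between the untreated titles, 2 probes passed with all 8 arrays in 1 fit and 778 without adjustment in the t-test named in the methods. After DMBA, 100 passed with quantile normalization, 1374 with median centring, 3023 with normexp, 33 with all 8 arrays, 964 with a trend, 6969 in that t-test, and 0 to 11253 with 1 array left out, which leaves a group of 1 array assumed to vary like the other group. Genes above on the low side that passed in the same direction after DMBA numbered 14 with quantile normalization, 122 with median centring, 179 with normexp and 0 to 527 with 1 array left out, and genes below 4, 76, 73 and 0 to 369. The cause was not tested. The replicate number as a block gave 0 probes passing between the titles in untreated skin, 0 after DMBA, and 0 genes above and 0 below. The difference between replicates correlated between the titles with r = 0.81 in untreated skin, where the number coincides with the sides, and r = -0.06 in DMBA-treated skin. Between the treatments it was 0.52 for *CD109*+/+ untreated with *CD109*-/- DMBA, 0.54 within *CD109*-/-, and 0.10 to 0.11 for the other two. With 2 numbers and no label that pairs the samples the number was not taken as a pairing, and no block can be fitted to the sides.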
